A study of Mus musculus with 8 samples.

Results

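The collagen genes were taken as the entries of the raw count table whose symbol is Col, digits, the letter a and digits with nothing after them. This gave 44 of 42391 gene entries, which code for the chains of 27 collagen types. Collagens are secreted or membrane-bound proteins built as a triple helix of 3 chains, and they are grouped by the structures they form. Fibrillar collagens (types I, II, III, V, XI, XXIV and XXVII) form the fibrils of connective tissue, FACIT collagens decorate the fibril surface, type IV builds the network of the basement membrane around each muscle fibre, and type VI forms beaded microfilaments beside it. Multiplexins sit in the basement membrane zone, short-chain collagens form sheet-like networks, type VII forms anchoring fibrils, and transmembrane collagens span the cell membrane. The 44 genes held 11 fibrillar, 9 FACIT, 6 basement membrane, 6 beaded filament, 4 transmembrane, 3 short-chain, 2 multiplexin, 1 anchoring fibril and 2 other chains.

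The 8 RNA samples comprised 2 replicates of each of 4 groups, all of wild-type genotype. C2C12 cells, a mouse myoblast line, were collected 60 h after transfection at 12 h of differentiation in low serum. Primary myoblasts, cultured on Matrigel from the hindlimb muscle of young mice after preplating on rat tail collagen, were collected 48 h after transfection in proliferation medium. In both, a Septin9 siRNA was compared with a non-targeting siRNA. The siRNA dose of C2C12 cells was 100 nM over the initial 5 h and 50 nM afterwards. Counted reads ranged from 20898611 to 27223414 per sample. Septin9 fell in every pair, from 429 and 441 CPM (read counts scaled to TMM-adjusted library size) to 151 and 189 CPM in C2C12 cells. In primary myoblasts it went from 364 and 458 to 199 and 157 CPM. Myoblast markers were present in both cell types. The 9 differentiation markers, such as Myog and Myh3, summed to between 26.2 and 150 CPM in C2C12 cells and between 3264 and 14644 CPM in the primary myoblasts, although only the C2C12 cells had been moved to differentiation medium. In primary myoblasts replicate 2 differed from replicate 1 in collagens and in fibroblast markers, and those values are given below for each replicate.

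Of the 44 collagens, 22 were expressed in control C2C12 cells and 27 in control primary myoblasts, where expressed means at least 1 CPM in both replicates. The shares over all gene entries were 33.2% and 34.0%. Both cell types expressed 21 of the collagens, and 16 were below this level in both. Col14a1, a FACIT chain, was expressed in C2C12 cells alone, at 1.72 and 3.99 CPM. Primary myoblasts alone expressed 6: Col10a1, Col13a1, Col19a1, Col24a1, Col25a1 and Col26a1. Together the collagens took 0.976% and 1.11% of all counts in control C2C12 cells, against 0.282% and 0.498% in control primary myoblasts. In such bulk samples fewer cells of a type and less RNA per cell cannot be told apart.

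Levels were compared between genes as CPM per kilobase of exon. In control C2C12 cells the highest was Col3a1, the single chain of type III, at 405 and 528 CPM per kilobase. Col1a2, the minor chain of type I, followed at 340 and 317, and Col5a2 of the fibril-nucleating type V at 245 and 243. The order of Col3a1 and Col1a2 was the same in both replicates. Col6a1 of type VI stood at 86.1 and 133 and Col18a1 at 79.0 and 85.6 CPM per kilobase, so that Col6a1 was the higher in both replicates, by less on average than the SD of its own replicates. In control primary myoblasts the highest was Col5a2, at 140 and 137 CPM per kilobase. Col4a1, a chain of the main basement membrane network, stood at 64.1 and 126, Col3a1 at 61.8 and 96.8, Col18a1 at 63.9 and 92.9, and its partner Col4a2 at 39.2 and 77.9. Of these 4, Col4a1 was the highest and Col4a2 the lowest in both replicates, while Col3a1 and Col18a1 changed places. The replicate ranges of all 4 overlapped.

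By structure, fibrillar chains made up 73.1% and 68.7% of the summed collagen level per kilobase in control C2C12 cells, but 50.2% and 51.7% in control primary myoblasts. Basement membrane chains made up 5.99% and 6.45% in C2C12 cells but 23.2% and 26.0% in primary myoblasts. The type VI chains, which form the beaded filaments, made up 9.52% and 11.7% in C2C12 cells against 0.777% and 3.26%, and the multiplexins 5.2% and 4.85% against 14.0% and 12.0%. These 4 shares did not overlap between the cell types.

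Chains of one protein were not always at similar levels. Type I collagen is usually made of 2 chains of Col1a1 and 1 of Col1a2. In control C2C12 cells Col1a1 stood at only 17.6 and 16.6 CPM per kilobase, so that Col1a2 was 19.3 and 19.1 times higher. In primary myoblasts this ratio was 7.04 in control replicate 1 and 2.04 in control replicate 2. The ratio of Col4a1 to Col4a2 was far steadier, at 1.63 and 1.62 in the control primary myoblasts, 1.63 and 1.63 after Septin9 siRNA, and between 1.26 and 1.49 in the 4 C2C12 samples.

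**Figure D1:**
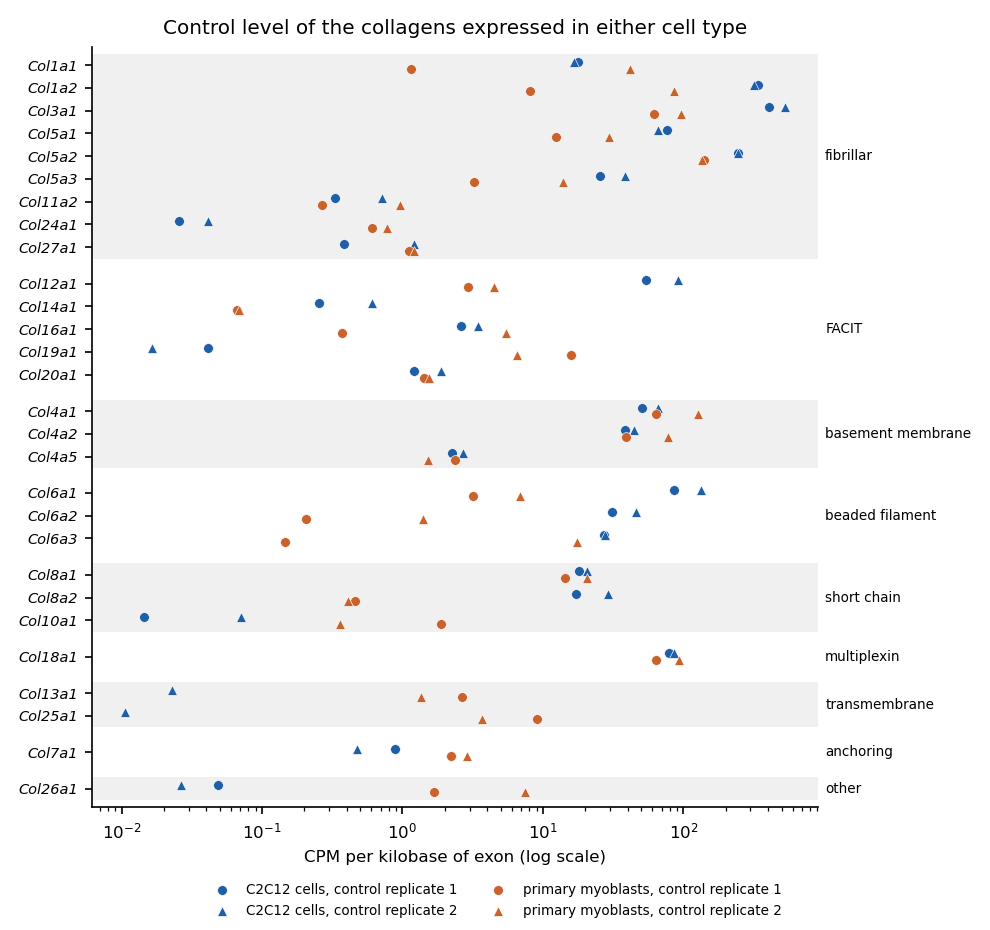
Control level of the 28 collagens expressed in either cell type, as CPM per kilobase of exon on a log scale, with 1 point per control replicate and the genes grouped by structure. Values of 0 (Col13a1 and Col25a1 in C2C12 replicate 1) are not drawn. Col3a1 of C2C12 cells lies farthest to the right, at 405 and 528, and the circles and triangles of primary myoblasts are far apart for Col6a3 and Col1a1.

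Col4a1 and Col4a2 lie head to head on chromosome 8, on opposite strands, and their annotated exons share 22 bases. The RefSeq windows around their starts (250 bases before to 50 after, build GRCm38.p6) overlap by 78 bases. They are shown because their ratio was steady across samples. Col18a1 is shown because it was the collagen that changed in both cell types, and it has 2 annotated starts on chromosome 10. Counts per gene do not tell transcripts from the 2 starts apart. Capitals mark CCAAT and GGGCGG on either strand.
Col4a1, chr8:11312777-11313076, minus strand: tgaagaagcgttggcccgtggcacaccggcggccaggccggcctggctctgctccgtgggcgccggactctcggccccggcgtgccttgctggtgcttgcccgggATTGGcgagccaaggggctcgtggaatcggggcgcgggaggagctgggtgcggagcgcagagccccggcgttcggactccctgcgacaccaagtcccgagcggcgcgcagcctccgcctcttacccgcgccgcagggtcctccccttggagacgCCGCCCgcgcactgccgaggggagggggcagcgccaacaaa
Col4a2, chr8:11312555-11312854, plus strand: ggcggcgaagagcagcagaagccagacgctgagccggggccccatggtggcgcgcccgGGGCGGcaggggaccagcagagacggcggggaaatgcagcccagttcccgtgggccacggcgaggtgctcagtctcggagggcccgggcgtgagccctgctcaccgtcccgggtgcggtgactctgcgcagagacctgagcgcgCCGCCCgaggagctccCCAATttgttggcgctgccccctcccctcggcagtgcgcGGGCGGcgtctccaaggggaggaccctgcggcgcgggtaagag
Col18a1 distal start, chr10:77166481-77166780, minus strand: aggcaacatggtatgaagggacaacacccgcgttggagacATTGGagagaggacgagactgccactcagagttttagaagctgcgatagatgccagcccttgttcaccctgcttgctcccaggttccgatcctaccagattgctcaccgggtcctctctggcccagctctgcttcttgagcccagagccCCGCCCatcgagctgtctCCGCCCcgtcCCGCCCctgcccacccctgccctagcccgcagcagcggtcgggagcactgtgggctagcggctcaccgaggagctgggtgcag
Col18a1 proximal start, chr10:77113656-77113955, minus strand: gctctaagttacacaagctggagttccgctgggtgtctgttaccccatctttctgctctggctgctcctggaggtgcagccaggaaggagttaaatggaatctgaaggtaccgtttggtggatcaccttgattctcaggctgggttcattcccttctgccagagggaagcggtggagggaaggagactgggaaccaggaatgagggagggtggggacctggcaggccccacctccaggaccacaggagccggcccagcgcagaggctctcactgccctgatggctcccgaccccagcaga

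The distal Col18a1 window held 3 GGGCGG and 1 CCAAT match, whereas the proximal one held neither. The Col4a2 window held 3 GGGCGG matches and the Col4a1 window 1, and both held 1 CCAAT. None of the 4 windows held TATAAA or the E-box letters CANNTG. Windows were found for 35 of the 44 collagens, 38 windows in all. GGGCGG was found in 60.5% of them and in 35.7% of the 32851 windows of all genes, CCAAT in 34.2% and 37.4%, TATAAA in 13.2% and 13.6%, and CANNTG in 52.6% and 72.3%, on either strand. Matches of different motifs may share bases. No window was at hand for Col12a1, Col14a1, Col1a1, Col22a1, Col26a1, Col2a1, Col4a3, Col5a2 and Col9a3.

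Whether loss of Septin9 changed collagen transcripts was asked within each cell type, with the replicate number as a block. Of the 44 collagens, 27 had enough counts to be tested in C2C12 cells and 34 in primary myoblasts, 24 of them in both. The 7 tested in neither (Col4a3, Col6a5, Col6a6, Col9a1, Col9a2, Col22a1 and Col23a1) did not exceed 0.514 CPM in any sample. In C2C12 cells 4 of 27 collagens passed an adjusted p of 0.05 in edgeR, 3 of them lower (Col18a1, Col6a3 and Col12a1) and 1 higher (Col5a3). Of all 15814 entries tested there, 6.75% passed. In primary myoblasts 4 of 34 passed, 3 of them higher (Col16a1, Col11a2 and Col25a1) and 1 lower (Col18a1), beside 4.99% of 17117 entries. Of the collagens tested, 14.8% and 11.8% thus passed. By direction, 2.64% of all entries were higher and 4.12% lower in C2C12 cells, whereas 3.95% were higher and 1.04% lower in primary myoblasts. Under the study's further 1.5-fold threshold, 2 collagens were lower and 0 higher in C2C12 cells (Col18a1 and Col6a3), beside 1.57% of entries in either direction, 0.828% higher and 0.74% lower. In primary myoblasts 3 were then higher and 0 lower, beside 3.17%, 2.87% and 0.298%. All 8 calls were lost without the block, where no entry of either table passed in edgeR, 372 and 378 entries and 2 and 0 collagens had an unadjusted p under 0.05, and DESeq2 with the block called 3 collagens in each cell type. DESeq2 on the batch-corrected counts called 5 in C2C12 cells and 3 in primary myoblasts. With either replicate left out the 8 calls kept their direction, but the sizes moved. Col5a3 in C2C12 cells gave 0.11 without replicate 1 and 0.44 without replicate 2, and Col25a1 in primary myoblasts 1.25 and 0.43. In both cell types the median of the collagens changed sign with the pair kept. Such fits have no spread of their own in that cell type, so they cannot decide which collagens pass. In primary myoblasts the split of 3 higher and 1 lower became 2 and 0 with RLE scaling and 1 and 1 with library size alone.

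Col18a1 encodes type XVIII collagen, a basement membrane multiplexin whose C-terminal fragment is endostatin. The gene spans chr10:77052178-77166548 on the minus strand. Its level was 563 and 589 CPM in control C2C12 cells, and 360 and 378 CPM after Septin9 siRNA. Control primary myoblasts stood at 421 and 612 CPM, treated ones at 288 and 425 CPM. Both treated C2C12 samples were thus below both controls, whereas in primary myoblasts the groups overlapped and the fall was seen within each pair. The log2 ratios of the pairs were -0.64 and -0.64 for C2C12 cells, against -0.55 and -0.53 for primary myoblasts. The fitted log2 fold changes were -0.64 ± 0.07 (SE, n = 2 pairs, edgeR adjusted p = 8.8e-06) and -0.54 ± 0.13 (adjusted p = 0.017). Their difference was 0.10 ± 0.13 (adjusted p = 0.89). With RLE scaling the primary myoblast value no longer passed (adjusted p = 0.069). Col15a1, the other multiplexin, was at or below 0.112 CPM in C2C12 cells and was not tested there. In primary myoblasts it stood at 0.375 CPM in control and 0.0856 CPM in treated replicate 1, but at 12.8 and 24.0 CPM in replicate 2, with a log2 fold change of 0.73 ± 0.26 that did not pass (adjusted p = 0.14).

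Type VI collagen is secreted by cells around muscle fibres, and defects in its chains cause muscular dystrophies. Col6a3, its longest chain, stood at 312 and 305 CPM in C2C12 controls but at 192 and 213 CPM after Septin9 siRNA, with no overlap of the groups. It fell by 0.61 ± 0.07 on the log2 scale (adjusted p = 1.6e-05). Its partners did not pass. Col6a1 went from 370 and 551 to 314 and 482 CPM (log2 fold change -0.22 ± 0.07, adjusted p = 0.068) and Col6a2 from 197 and 278 to 183 and 258 CPM (-0.11 ± 0.07, adjusted p = 0.43). In primary myoblasts no type VI chain passed. Col6a3 was at 1.54 and 0.599 CPM in control and treated replicate 1 but at 183 and 170 CPM in replicate 2, with pair ratios of -1.25 and -0.11. Col6a1 went from 12.7 and 27.4 to 12.2 and 39.3 CPM. There Col6a2 stood at 1.21 and 1.33 CPM in replicate 1 and at 8.18 and 14.3 CPM in replicate 2 (log2 fold change 0.62 ± 0.22, adjusted p = 0.12).

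Of the FACIT chains, Col12a1, which binds fibrils in tendon and muscle, was lower in C2C12 cells, at 535 and 855 CPM against 692 and 1120 CPM in controls. The pairs gave -0.37 and -0.39, and the log2 fold change was -0.38 ± 0.07 (adjusted p = 0.0031). The groups overlapped, and the fall was seen within each pair. In primary myoblasts Col12a1 went from 34.4 and 52.6 CPM to 20.0 and 54.2 CPM, with pair ratios of -0.78 and 0.04 (adjusted p = 0.23). Col16a1, the chain of type XVI, rose in primary myoblasts by pair ratios of 0.87 and 0.82, from 1.88 and 27.4 CPM to 3.51 and 48.5 CPM (log2 fold change 0.85 ± 0.14, adjusted p = 0.0017). Reads of Col16a1 and of Col11a2, given further on, may be shared with copy entries of the same gene, so their levels are uncertain. In C2C12 cells it went from 14.2 and 18.1 to 20.0 and 20.8 CPM (0.34 ± 0.10, adjusted p = 0.059). Col14a1 gave 0.66 ± 0.21 in C2C12 cells (adjusted p = 0.073) and -0.53 ± 0.56 in primary myoblasts (adjusted p = 0.72), where it did not exceed 0.433 CPM. Col9a3, a cartilage chain, gave the most negative value in primary myoblasts, -0.78 ± 0.50, from levels of 0.584 and 0.649 CPM in controls, and did not pass (adjusted p = 0.48). Its partners Col9a1 and Col9a2 were not tested.

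**Figure D2:**
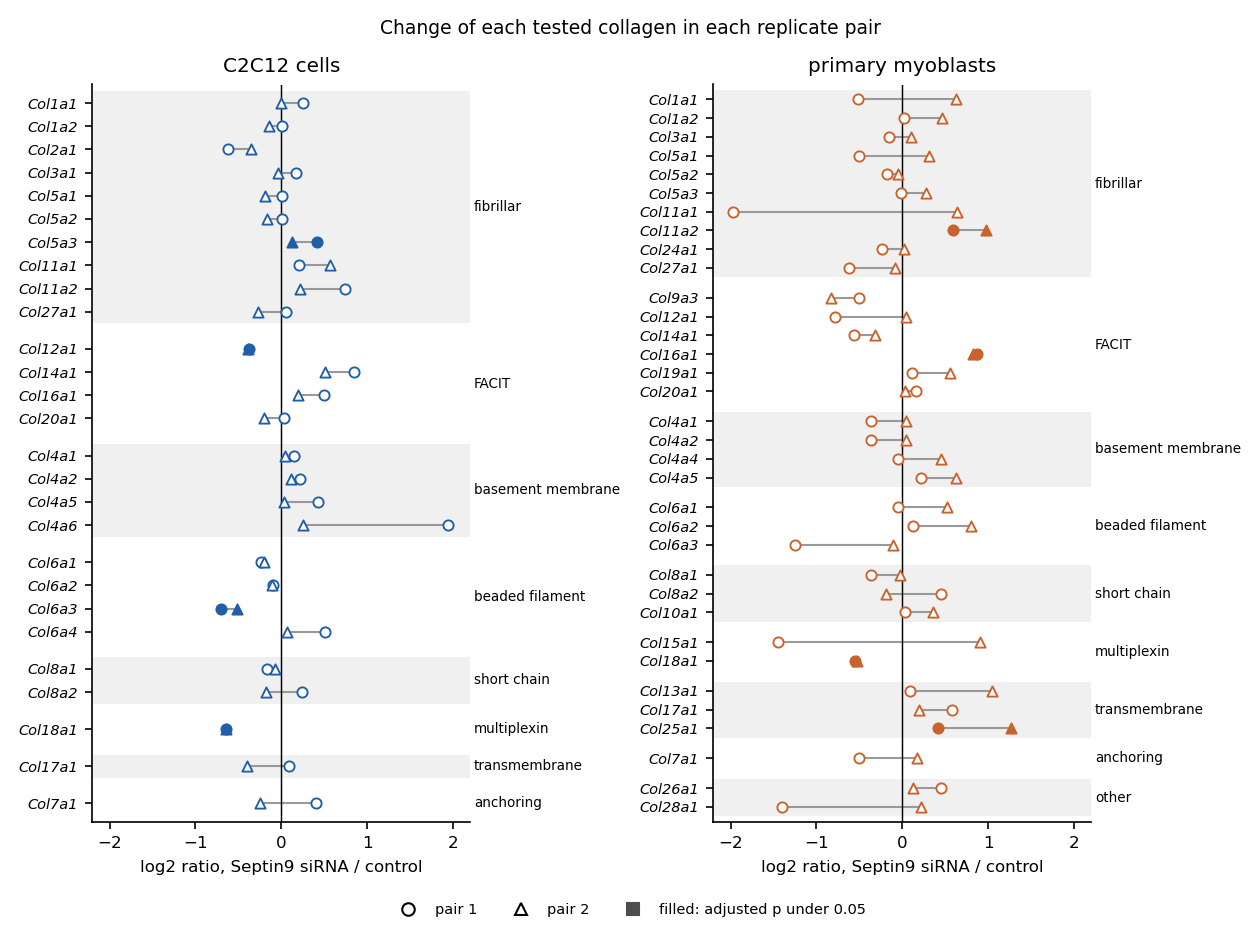
Log2 ratio of Septin9 siRNA to control for each tested collagen, with a circle for pair 1 and a triangle for pair 2, joined by a line, in C2C12 cells (27 genes, left) and primary myoblasts (34 genes, right), grouped by structure. Filled symbols mark an adjusted p under 0.05. Circles and triangles of Col18a1 lie on each other at -0.64 in C2C12 cells and at -0.55 and -0.53 in primary myoblasts, while 15 of the 34 lines of primary myoblasts reach from one side of 0 to the other.

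Among the fibrillar chains, Col5a3, a minor chain of type V, rose in C2C12 cells from 164 and 238 CPM to 218 and 260 CPM (pair ratios 0.41 and 0.13, log2 fold change 0.27 ± 0.07, adjusted p = 0.031). This call was lost in DESeq2 with the block (adjusted p = 0.20) but not in DESeq2 on the deposited batch-corrected counts (adjusted p = 0.0097). Its partners Col5a1 and Col5a2 gave -0.09 ± 0.07 and -0.08 ± 0.08. Col11a2, a chain of the cartilage fibril collagen XI, rose in primary myoblasts from 1.63 and 5.88 CPM to 2.48 and 11.6 CPM (pair ratios 0.59 and 0.98, log2 fold change 0.85 ± 0.21, adjusted p = 0.025), a call lost with RLE scaling, library size alone and both DESeq2 fits. Its partner Col11a1 had pair ratios of -1.98 and 0.64 there, from 0.917 and 11.0 to 0.171 and 17.2 CPM. In C2C12 cells Col11a2 gave 0.44 ± 0.21 and Col11a1 0.43 ± 0.38. Col2a1, the main cartilage chain, gave -0.62 ± 0.52 there from 0.859 CPM or less. None of these passed. The fibrillar chains Col3a1, Col1a2, Col5a2 and Col1a1 did not pass in either cell type. In C2C12 cells Col3a1 went from 2365 and 2977 to 2665 and 2900 CPM, Col1a2 from 1906 and 1720 to 1925 and 1561 CPM, Col5a2 from 1703 and 1633 to 1711 and 1458 CPM, and Col1a1 from 110 and 99.9 to 131 and 99.8 CPM. Their log2 fold changes lay between -0.08 and 0.13, with standard errors of 0.07 to 0.09. In primary myoblasts Col5a2 went from 898 and 878 to 794 and 847 CPM, and Col3a1 from 334 and 523 to 301 and 562 CPM. Col1a1 went from 6.63 to 4.62 CPM in pair 1 and from 241 to 374 CPM in pair 2, so that its 2 ratios, -0.51 and 0.63, were opposite.

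The basement membrane chains did not pass in either cell type. Col4a1 stood at 351 and 445 CPM in C2C12 controls, 390 and 461 CPM after Septin9 siRNA, with pair ratios of 0.15 and 0.05, and Col4a2 had pair ratios of 0.22 and 0.11. In primary myoblasts Col4a1 went from 412 and 811 to 320 and 838 CPM, and Col4a2 from 246 and 487 to 192 and 501 CPM. The pair ratios were -0.36 and 0.05 for Col4a1 and -0.36 and 0.04 for Col4a2, so each pair gave both genes nearly the same value. Col4a6 had the highest log2 fold change of the C2C12 cells, 0.88 ± 0.59, which did not pass (adjusted p = 0.47) and rests on 1 to 15 counts per sample. Its head-to-head partner Col4a5 went from 15.4 and 18.0 to 20.7 and 18.4 CPM there.

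Of the transmembrane collagens, Col25a1, which motor axons need to innervate muscle, rose in primary myoblasts from 60.4 and 24.7 CPM to 80.5 and 59.8 CPM. Pair ratios were 0.41 and 1.27, and the log2 fold change was 0.83 ± 0.15 (adjusted p = 0.0029). The lower treated sample was just below the higher control, so the groups overlapped. The call was lost with library size alone. Col13a1, a transmembrane collagen of the neuromuscular junction, had ratios of 0.09 and 1.05 (0.55 ± 0.21, adjusted p = 0.17). Neither exceeded 0.0854 CPM in C2C12 cells. Markers of differentiation were also higher after Septin9 siRNA, 7 of 9 in primary myoblasts and 6 of 8 in C2C12 cells, with none lower. The shares of all entries that were higher were 3.95% and 2.64%. Col25a1 was not tested in C2C12 cells. In replicate 2 of primary myoblasts Col25a1 and all 9 differentiation markers were lower than in replicate 1. Col16a1 and Col11a2, which also rose after Septin9 siRNA, were higher there by 3.82 and 2.06 on the log2 scale. The part of differentiation in the collagen changes was not tested.

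**Figure D3:**
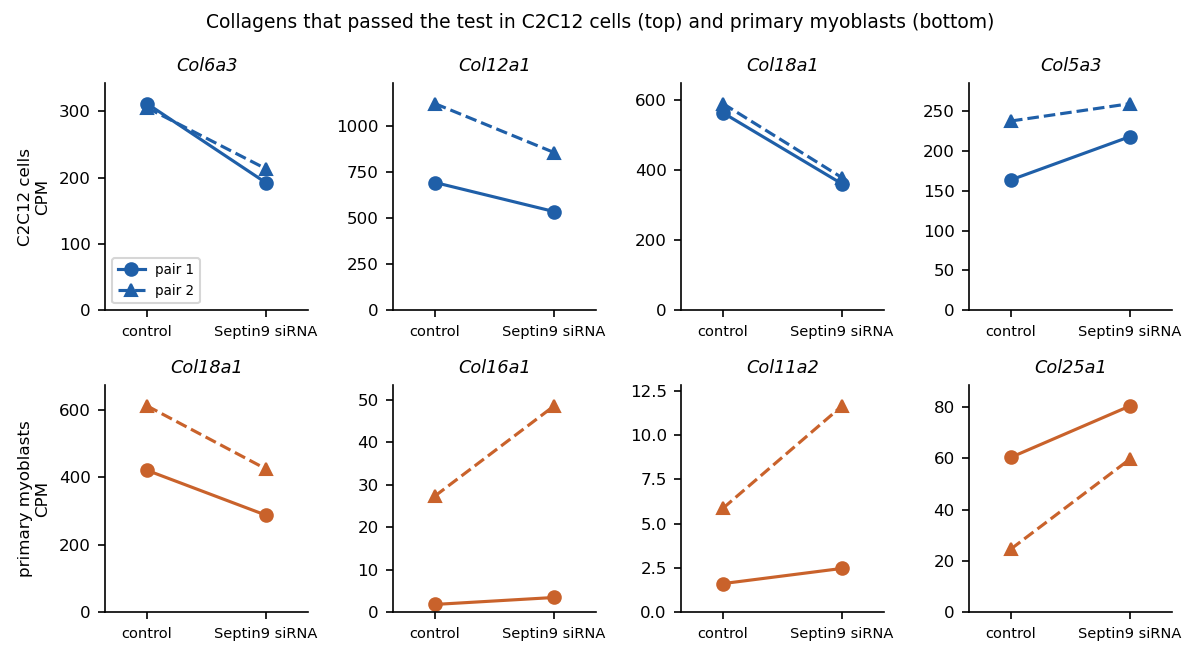
CPM of the collagens that passed the test, 4 in C2C12 cells (top) and 4 in primary myoblasts (bottom), with a line from the control to the Septin9 siRNA sample of each pair and axes that start at 0. Col18a1 fell in all 4 pairs, by similar ratios, and the primary myoblast pairs of Col16a1 start at 1.88 and 27.4 CPM.

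Across the tested collagens the 2 pairs did not move alike. In C2C12 cells 20 of 27 had a positive ratio in pair 1 and 10 of 27 in pair 2, with medians of 0.15 and -0.11. In primary myoblasts 13 of 34 were positive in pair 1 and 26 of 34 in pair 2, with medians of -0.16 and 0.21. Over all entries tested, between 49.2% and 53.6% of ratios were positive in each of these pairs. The sign was the same in both pairs for 63.0% of the collagens in C2C12 cells but 55.9% in primary myoblasts, beside 62.5% and 61.9% of all entries. The median fitted log2 fold change of the collagens was 0.03 in C2C12 cells and 0.15 in primary myoblasts, and that of all entries was -0.0008 and 0.01. The collagens that did not pass ranged from -0.62 to 0.88 (23 genes) and from -0.78 to 0.73 (30 genes). In both cell types the median ratio had opposite signs in the 2 pairs. A fit that keeps 1 pair of a cell type takes its spread from the pairs of the other cell type alone. The median log2 fold change of the collagens in primary myoblasts was 0.18 with replicate 1 left out and -0.04 with replicate 2 left out. In C2C12 cells it was -0.14 and 0.15. Among the fibrillar chains of primary myoblasts 2 of 10 ratios were positive in pair 1 (median -0.21) and 8 of 10 in pair 2 (median 0.29). Among their basement membrane chains 1 of 4 (median -0.21) and 4 of 4 (median 0.25) were positive. The 3 transmembrane chains tested in primary myoblasts were positive in both pairs. Of these Col17a1 did not exceed 0.728 CPM and gave 0.47 ± 0.49 (edgeR adjusted p = 0.71). Its pair ratios in C2C12 cells were 0.09 and -0.40.

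The difference between the 2 effects was tested over all 8 samples. No collagen of 37 and no entry of 17918 (0%) passed in edgeR, and 7 collagens had an unadjusted p under 0.05, as did 8.2% of entries. DESeq2 called 21 entries and 0 collagens. The lowest adjusted p of a collagen in edgeR was that of Col6a2, 0.29, with a difference of 0.76 ± 0.17 (primary myoblasts minus C2C12 cells).

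Control C2C12 cells were also compared with control primary myoblasts. Cell type, medium and stage cannot be told apart in this comparison. Of 32 collagens tested, 8 were higher and 8 lower in C2C12 cells, beside 16.2% and 18.3% of 17103 entries (34.5% in all). The higher ones were Col3a1, by 2.55 ± 0.29 on the log2 scale (adjusted p = 0.0071), Col5a1 by 1.76 ± 0.43, Col5a2 by 0.81 ± 0.14, Col6a1 by 4.43 ± 0.48, Col6a2 by 5.55 ± 0.93, Col8a2 by 5.73 ± 0.35, Col12a1 by 4.29 ± 0.38 and Col14a1 by 2.65 ± 0.57. The lower ones were Col7a1 (19.9 and 26.0 CPM in primary myoblasts against 8.64 and 4.44), Col9a3, Col10a1, Col13a1, Col19a1, Col24a1, Col25a1 and Col26a1. Of these Col19a1 stood at 68.5 and 27.9 CPM in primary myoblasts and at 0.191 and 0.0746 CPM in C2C12 cells. Col18a1 did not differ by this test (0.06 ± 0.22, adjusted p = 0.84). These counts changed when 1 control was left out. Such a fit takes its spread from the cell type that keeps 2 controls, and the lone sample is taken to vary alike. With a C2C12 control left out, that is the spread of the primary myoblast controls, where Col1a1 stood at 6.63 and 241 CPM.

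Replicate 2 was compared with replicate 1 in each cell type, a test chosen after the values were seen. In primary myoblasts 24 of 34 collagens differed, 20 of them higher in replicate 2 and 4 lower, beside 12.5% and 11.9% of all entries (24.5% in all). Col6a3 was higher by 7.37 on the log2 scale, Col15a1 by 6.23, Col1a1 by 5.74, Col11a1 by 4.63, Col16a1 by 3.82 and Col1a2 by 3.62, whereas Col5a2 differed by 0.03 (adjusted p = 0.91) and Col18a1 by 0.55. The 4 lower were Col10a1, Col19a1, Col25a1 and Col4a5. In C2C12 cells 16 of 27 differed, 11 higher and 5 lower, beside 17.4% and 18.3% of entries (35.7% in all), and the largest differences were 1.44 (Col27a1) and -1.42 (Col2a1).

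Markers of other cell types were read beside this difference. Of 10 fibroblast markers, 4 had enough counts in primary myoblasts, and all 4 were higher in replicate 2. Of all entries there, 12.5% were higher and 11.9% lower in replicate 2. Pdgfra, a receptor of connective tissue progenitors, stood at 1.00 CPM in control replicate 1 and 30.8 CPM in control replicate 2. The fibroblast markers summed to 9.10 and 8.64 CPM in replicate 1 and to 61.2 and 72.5 CPM in replicate 2, while Tcf21 and Scara5 were at 0 in all 4 samples. In C2C12 cells the same list summed to between 61.7 and 97.5 CPM. Of its 5 markers tested there, 4 were higher in replicate 2 and 1 lower, beside 17.4% and 18.3% of all entries. Differentiation markers were lower in replicate 2 of primary myoblasts in 9 of 9 cases, and myoblast markers in 4 of 7. Mural markers summed to 77.4 and 82.0 CPM in replicate 1 and 144 and 189 CPM in replicate 2, with 3 of 4 tested higher and 1 lower. The summed level in primary myoblasts was between 40.6 and 77.4 CPM for tenocyte markers, mainly Scx, between 5.28 and 7.83 for endothelial, between 1.43 and 2.86 for macrophage and between 2.10 and 2.49 for Schwann cell markers. In C2C12 cells, a myoblast line, mural markers summed to between 246 and 334 CPM and tenocyte markers to between 76.2 and 97.3 CPM. The sums there were between 0.0910 and 0.513 CPM for endothelial, 1.87 and 1.96 for macrophage and 0.932 and 2.00 for Schwann cell markers. After Septin9 siRNA 1 fibroblast (Thy1), 1 tenocyte (Scx) and 1 mural marker (Abcc9) were higher in primary myoblasts, and 1 fibroblast marker (Scara5) was lower in C2C12 cells. The part of other cell types in the collagen values was not tested.

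**Figure D4:**
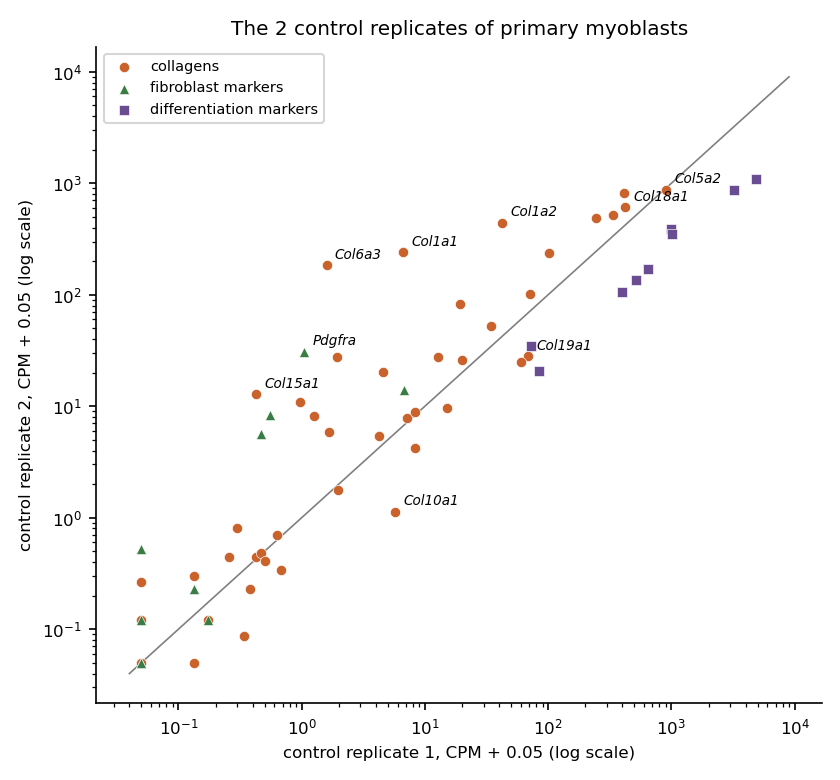
Control replicate 2 of primary myoblasts against control replicate 1, in CPM + 0.05 on log scales, with 1 point for each of the 44 collagens, 10 fibroblast markers and 9 differentiation markers, and a line where both are equal. Col6a3 (1.54 and 183 CPM), Col1a1 and Col1a2 lie above the line with Pdgfra, Col5a2 lies on it, and the differentiation markers lie below it.

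Of 38 genes of collagen biosynthesis, from prolyl and lysyl hydroxylases to chaperones, procollagen proteases and cross-linking enzymes, 36 were tested in C2C12 cells and 37 in primary myoblasts. In C2C12 cells 1 was higher and 0 lower, beside 6.75% of all entries. It was Adamts14, a protease that removes the procollagen N-propeptide (log2 fold change 0.34 ± 0.07, adjusted p = 0.0057). In primary myoblasts 3 were higher and 0 lower, beside 4.99%: Tmem38b, an endoplasmic reticulum cation channel (0.66 ± 0.11), P4ha1, a catalytic subunit of prolyl 4-hydroxylase (0.51 ± 0.12), and Loxl1, a cross-linking enzyme (0.47 ± 0.12). The collagen chaperone Serpinh1 went from 1009 and 1148 to 1066 and 1014 CPM in C2C12 cells, and in primary myoblasts from 817 and 1166 to 801 and 1181 CPM. In control C2C12 cells 15 of 37 biosynthesis genes were higher than in control primary myoblasts and 1, Adamts14, was lower, beside 16.2% and 18.3% of all entries. Over all entries this comparison shrank from 2778 higher and 3123 lower to 267 and 245 without C2C12 control replicate 2. Of 11 collagen receptors, 8 were tested for the siRNA effect in C2C12 cells and 9 in primary myoblasts. Ddr1, a collagen-binding kinase (0.26 ± 0.07), and Mrc2, a receptor that takes up collagen (0.28 ± 0.06), were higher after Septin9 siRNA in C2C12 cells. Mrc2 (0.39 ± 0.11) was also higher after it in primary myoblasts, and no receptor was lower. The shares of all entries that were higher were 2.64% and 3.95%.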

How the data were processed

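RNA-seq counts of 8 samples were analysed. Per the labels, the authors mapped reads with STAR 2.7.2 to GRCm38.p6 and counted them with featureCounts 2.0.1; strand settings and the handling of copies are not given in the sources used here. The deposited raw counts were the input, and the main fits scaled them by TMM as given below. The authors also deposited a batch-corrected signal for each cell type, made with ComBat-Seq and DESeq2 1.40.1 size factors, whose values were whole multiples of 1 read in 100% of cases (tolerance 0.01). The counts recovered from it served as an alternative only.

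Broken lines (16) of the raw counts were left out. Entries with a copy suffix (2379, of which 5 collagens) were tested but are not members. Samples were grouped by title. In R 4.3.3, edgeR 4.0.16 (filterByExpr, TMM, quasi-likelihood test, Benjamini-Hochberg adjustment over all entries) compared siRNAs within each cell type with the replicate number as a block, since the study ran independent experiments and removed their batch effect. Deviations of same-numbered samples correlated at 0.678 (C2C12 cells) and 0.820 (primary myoblasts). The interaction used all 8 samples, and controls were compared over 4 samples without a block. In fits with the block, p-values measure the spread left once the difference between the replicates is removed. They do not measure the spread between the 2 replicates of a group. P-values of the control comparison, which had no block, do measure that spread. In all fits edgeR moderated the spread over all entries, and standard errors come from the F statistic. CPM used TMM within a cell type. CPM per kilobase used TMM over all samples and merged exons of GENCODE M21 (basic), and pair ratios used a prior count of 2. The fits were tested on simulated counts drawn from the fitted model, with 200 genes changed. They recovered 97% to 100% of these. Only well counted genes were changed, and in the siRNA comparisons by more than any collagen that passed. Recovery of smaller changes or of weakly counted genes was not tested. False calls made up 4.31% (C2C12 cells) and 4.85% (primary myoblasts) of the siRNA calls and 5.83% for the interaction. For the control comparison they made up 9.63%, above the nominal 5%.

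The collagens, their classes and the gene lists were chosen with earlier results of these data known. Named are collagens that passed, the 5 highest per kilobase, their partner chains and the 5 largest changes that did not pass in each cell type; other names were chosen after their values were seen. Alternatives were RLE or library size scaling, other count filters, no block, DESeq2 1.42.0, DESeq2 on the batch-corrected counts, all 8 samples in 1 fit, copies left out, other thresholds and each replicate left out. Python 3.11.15 was used for other steps.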

Additional observations from a re-analysis of the deposited data

Results flagged for a closer look

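Entries named as a further copy of a collagen are not among the 44 genes, and 3 of their values passed the test (edgeR, adjusted p under 0.05). Col16a1_1 was higher after Septin9 siRNA by 0.31 on the log2 scale in C2C12 cells (adjusted p = 0.038), where Col16a1 itself gave 0.34 and did not pass, and by 0.82 in primary myoblasts, where Col16a1 gave 0.85. Its counts, 467 and 770 in control C2C12 cells and 17 and 355 in control primary myoblasts, differed from the 297 and 486 and the 45 and 759 of Col16a1, so the copies did not hold the same reads in the same share. Col11a2_1 was higher by 0.86 in primary myoblasts, as Col11a2 was by 0.85, with 38 and 158 counts in the controls beside 39 and 163. How reads were shared between a gene and its copy is not given in the sources used here, so the levels of Col16a1, Col11a2 and Col4a6 are uncertain.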

How the results depend on the processing

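No collagen that passed changed its direction under any of the 11 alternatives run. Col16a1 in primary myoblasts kept its call in 10 of 11 and Col18a1 in 9 of 11 there and 8 of 11 in C2C12 cells. Col6a3 kept it in 8, Col12a1 in 7 and Col5a3 in 6 of 11 in C2C12 cells, and Col25a1 in 9 and Col11a2 in 4 of 11 in primary myoblasts. Fits without the replicate block gave 0 higher and 0 lower collagens for either cell type. For C2C12 cells the 1 higher collagen became 3 with library size alone or no count filter, 2 with copies left out, and 0 with DESeq2, with all 8 samples in 1 fit, with the fold threshold or at an adjusted p of 0.01. The 3 lower became 1 with all 8 samples. In primary myoblasts the 3 higher became 1 with library size alone and 6 with no filter, and the 1 lower became 0 with RLE, with the fold threshold or at an adjusted p of 0.01. With either replicate left out, the lone pair of that cell type gave no spread of its own. Between the controls the 8 lower became 1 when every sample needed 10 counts, and leaving out 1 control gave 2 to 12 higher and 0 to 11 lower. Over all entries the 1068 calls of C2C12 cells became 283 with DESeq2, 111 with all 8 samples, 98 without replicate 1 and 181 without replicate 2; the 854 of primary myoblasts became 295 with RLE, 236 with library size alone, 256 with DESeq2 and 2020 without replicate 1. Between controls, 2778 higher and 3123 lower entries became 267 and 245 without C2C12 control replicate 2. The numbers of expressed collagens and of replicate differences stayed within 1.5 times under their alternatives, and the count of collagens whose change differed between cell types stayed at 0. The median log2 fold change of the collagens changed sign with some alternatives. In C2C12 cells 0.03 became -0.14 without replicate 1, -0.07 in DESeq2 on the batch-corrected counts and -0.04 with no count filter. It also turned negative with no block and when every sample needed 10 counts, and was 0.15 without replicate 2. In primary myoblasts 0.15 became -0.04 without replicate 2, and stayed positive at 0.03 in DESeq2 with the block. The causes of these changes were not tested. With 2 pairs per cell type, changes of weakly counted chains could not be resolved. Leaving out a pair assumes that the lone samples vary like the other cell type.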
